A study of Mus musculus with 36 samples.

Results

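Genes for proteins stored in neutrophil granules were followed in mouse diaphragm together with Mmp9, the gene for gelatinase B. The 7 genes were Mmp9, S100a8, S100a9, Ngp, Camp, Ltf and Lcn2, and every probe set that the array's annotation pairs with one of these symbols was taken, which gave 9 of the 12422 probe sets on the array that are not controls of its maker. Mmp9 was selected on its 7-day signals, which were low in mdx muscle, and the other genes were added for what their products do. The 7-day values of Mmp9 are therefore given as a description with no p-value. The question asked of the other 6 genes was whether they were low in the same muscles.

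Diaphragm, the main breathing muscle, was taken from mdx mice, which carry a point mutation in the dystrophin gene Dmd, and from control mice, which the series title calls wild type. Both genotypes were sampled at 7, 14, 23, 28, 56 and 112 days of age, with 3 Affymetrix arrays for each of the 12 groups and 36 arrays in all. The labels give no strain, sex or treatment and do not say whether a replicate was 1 animal or a pool. P-values therefore rest on the spread among arrays of a group, part or all of which may be technical.

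Neutrophils fill their granules in the bone marrow, in waves, while they mature. In that lineage Ngp, Camp, Ltf, Lcn2 and Mmp9 are transcribed mainly in maturing marrow cells, whereas S100a8 and S100a9 are transcribed there and in circulating neutrophils and monocytes. Lcn2 is also induced in epithelia and other tissues under inflammation. C/EBP family factors, C/EBP epsilon above all, drive many of these granule genes. Mmp9 has other sources, among them macrophages and osteoclasts, the cells that resorb bone, and in dystrophic muscle it is known for its rise with inflammation. In whole muscle, fewer cells of a type and less RNA per cell cannot be told apart.

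The sequences just upstream of 5 granule genes are shown because these genes had their highest signal of the series on the same array, as described further on. S100a8 and S100a9, whose products pair to form calprotectin, are neighbours on chromosome 3 with 0 annotated genes between them, while Ngp and Camp, whose products are related cathelin-type proteins, and Ltf lie on chromosome 9. Each line gives the 250 bases before the gene's start, from RefSeq on GRCm38.p6, read 5′ to 3′ on the gene's own strand. Capitals mark every match to TTNNGNAA or to its reverse complement TTNCNNAA, a loose form of the site that C/EBP factors bind. The windows are chr3:90668821-90669070 on the plus strand for S100a8, chr3:90695722-90695971 on the minus strand for S100a9, chr9:110419558-110419807 on the plus strand for Ngp, chr9:109849457-109849706 on the minus strand for Camp and chr9:111019042-111019291 on the plus strand for Ltf.
S100a8: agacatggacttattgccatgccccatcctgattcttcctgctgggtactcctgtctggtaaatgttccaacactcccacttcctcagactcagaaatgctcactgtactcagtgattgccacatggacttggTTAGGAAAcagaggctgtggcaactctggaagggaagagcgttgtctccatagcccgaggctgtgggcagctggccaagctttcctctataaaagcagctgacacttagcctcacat
S100a9: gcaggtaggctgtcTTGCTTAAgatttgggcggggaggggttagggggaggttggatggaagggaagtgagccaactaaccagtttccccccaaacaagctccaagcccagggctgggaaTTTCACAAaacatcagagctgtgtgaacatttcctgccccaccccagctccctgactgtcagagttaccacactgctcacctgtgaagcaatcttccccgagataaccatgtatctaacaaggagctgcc
Ngp: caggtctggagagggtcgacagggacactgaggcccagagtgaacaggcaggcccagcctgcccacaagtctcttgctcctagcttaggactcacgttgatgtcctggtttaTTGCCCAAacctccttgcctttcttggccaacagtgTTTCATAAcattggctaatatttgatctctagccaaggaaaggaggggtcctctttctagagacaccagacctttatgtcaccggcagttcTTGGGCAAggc
Camp: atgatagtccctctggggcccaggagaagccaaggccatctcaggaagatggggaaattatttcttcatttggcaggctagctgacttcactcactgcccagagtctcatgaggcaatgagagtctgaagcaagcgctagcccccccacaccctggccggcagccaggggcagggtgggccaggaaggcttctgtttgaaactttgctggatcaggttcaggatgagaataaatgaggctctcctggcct
Ltf: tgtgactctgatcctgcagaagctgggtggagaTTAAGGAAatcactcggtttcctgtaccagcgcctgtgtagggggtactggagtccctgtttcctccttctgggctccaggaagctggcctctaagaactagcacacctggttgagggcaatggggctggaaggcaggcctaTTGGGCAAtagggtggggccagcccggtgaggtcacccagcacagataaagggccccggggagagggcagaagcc
S100a8 held 1 match, S100a9 2, Ngp 3, Camp 0 and Ltf 2. Windows were found for 6 of the 7 genes, all but Mmp9, and 5 of the 6 held at least 1 match, against 36.8% of 32851 mouse windows of the same length. The TATA box letters TATAAA, searched on both strands, were in 1 of the 6 windows, that of S100a8, against 12.4% of all windows. A match is a description of the letters and not a binding site.

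Mmp9, whose product cuts denatured collagen and basement membrane, was dim on every mdx array at 7 days and bright on 2 of the 3 control arrays. Its signal on probe set 99957_at was 84.4, 74.5 and 90.3 in mdx replicates 1 to 3, against 389.9, 2516 and 2436.5 in control replicates 1 to 3. The groups did not overlap, and control replicate 1 lay much closer to the mdx arrays than the other two controls did. The lowest control was 4.32 times the highest mdx array. The mean was 83.1 ± 8.0 in mdx and 1781 ± 1205 in controls (SD, n = 3 each). On the scale log2(signal + 32), which understates changes of dim genes, the mdx minus control difference was -3.59 ± 0.504 (SE). Over the alternatives it ran from -4.45, without control replicate 1, to -3.15, without control replicate 2. Of all tested probe sets 7.16% were lower in mdx without overlap at this age, a share from which nothing is read for Mmp9, since these values chose it.

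The second Mmp9 probe set, 162369_f_at, had the same order of the 3 controls at a far lower signal. It read 34.6, 5.7 and 25.5 in the mdx arrays, against 48.1, 158.9 and 150.4 in the controls. Control replicates 2 and 3 again stood above replicate 1, and the groups did not overlap. This probe set never exceeded 374.5, the signal that a probe set had to pass on at least 3 arrays to be tested.

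**Figure D1:**
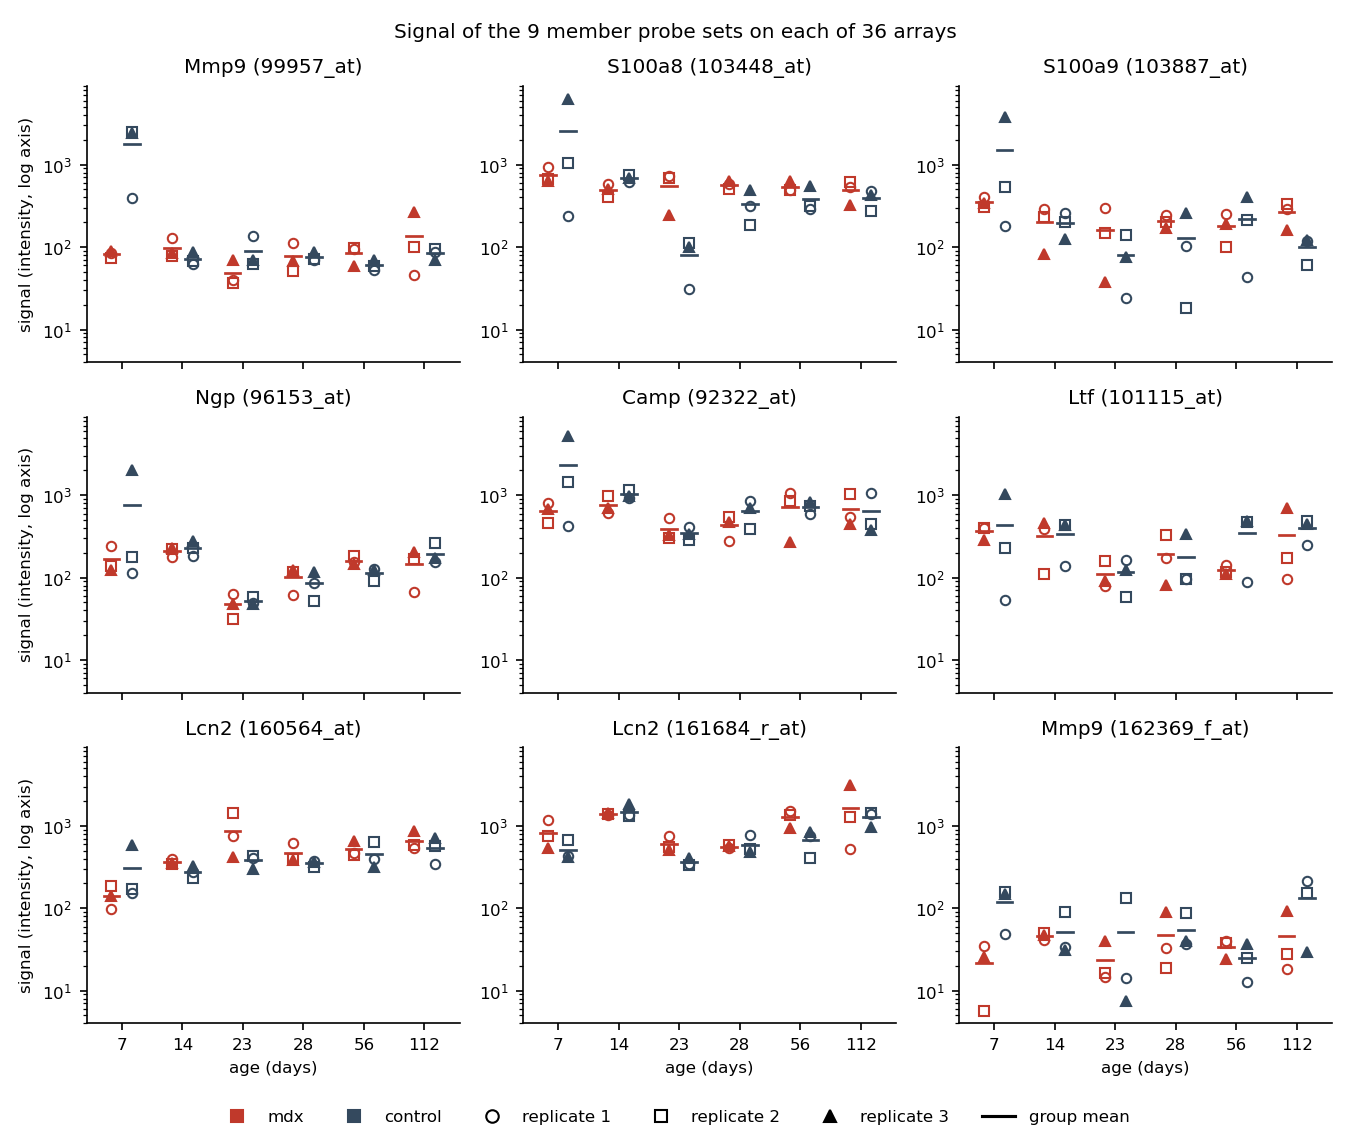
Signal of the 9 probe sets on each of the 36 arrays by age in days, on a log axis; mdx in red at the left and control in dark blue at the right of each age, marker shape for the replicate, horizontal lines for group means. Mmp9 99957_at is high in the 7-day controls alone, and control replicate 3 at 7 days, a filled triangle, carries the highest S100a8, S100a9, Ngp, Camp and Ltf signals of the series.

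The filter passed 7 of the 9 probe sets, 6 of them from genes other than Mmp9. Mmp9 99957_at passed only through the 3 control arrays at 7 days, so it had to differ there. Ngp was left out, since only control replicate 3 at 7 days exceeded the limit, and its values come from the fit without a filter. In limma with Benjamini-Hochberg adjustment over the 9291 probe sets tested, 0 of the 6 probe sets other than Mmp9 passed an adjusted p under 0.05 at 7 days, where 0.463% of all tested probe sets did. At an unadjusted p under 0.05, 1 of the 6 passed, and without a filter 0 of 7 passed the adjusted threshold, where 0.386% of all did. Shares of 0 are near these backgrounds, so nothing particular to the granule genes is read from them. The values by array follow.

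S100a8, a calcium-binding protein of the cytosol that neutrophils release at sites of inflammation, read 930.7, 667.5 and 629.1 in mdx arrays at 7 days, against 238.6, 1057.8 and 6316.1 in controls. The mdx arrays lay between control replicate 1 and control replicate 2, and control replicate 3 was 5.97 times the next highest array. The difference was -0.69 ± 0.597 (limma adjusted p = 0.705). Without control replicate 3 it was 0.49 and without control replicate 1 it was -1.78 (adjusted p = 0.883 and 0.237).

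S100a9, the partner of S100a8, followed it. Its signal at 7 days was 405.3, 304.7 and 345.1 in mdx arrays, against 182.4, 540.9 and 3754.3 in controls. Control replicate 1 was again the lowest of the 6 arrays and control replicate 3 the highest, by 6.94 times over the next. The difference was -1.02 ± 0.742 (limma adjusted p = 0.639), and 0.12 without control replicate 3.

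Ngp, neutrophilic granule protein, had 243, 139.1 and 124.8 in mdx arrays at 7 days, against 115.2, 178.7 and 2005.9 in controls. A single array, control replicate 3, stood 8.25 times above the next, which was an mdx array. The difference was -1.03 ± 0.540 in the fit without a filter (limma adjusted p = 0.567). Without control replicate 3 it was 0.14 in that fit (adjusted p = 0.982), an alternative chosen after seeing the data.

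Camp, the mouse cathelicidin, is an antimicrobial peptide of the specific granules. Its control replicate 2 was 1.80 times the highest mdx array, the largest such ratio of the granule genes, against 27.9 for Mmp9 99957_at. For S100a8 and S100a9, whose arrays had a like order, the ratio was 1.14 and 1.33. Camp read 816.1, 462.5 and 672 in mdx arrays at 7 days, against 423.8, 1465.5 and 5179.2 in controls. Control replicates 2 and 3 were above all mdx arrays, but control replicate 1 was below them, so the groups overlapped. The difference was -1.20 ± 0.538 (limma unadjusted p = 0.0337, adjusted p = 0.423). It was -0.31 without control replicate 3, and -2.07 without control replicate 1 (adjusted p = 0.952 and 0.0758).

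Ltf, the iron-binding lactoferrin of the specific granules, had a lower mean signal in mdx arrays, at 363.6 in mdx and 438.1 in controls, but a positive difference on the log2 scale. Its signal at 7 days was 402.2, 404 and 284.6 in mdx arrays, against 52.9, 229.7 and 1031.7 in controls. The mdx arrays were above control replicates 1 and 2 and below control replicate 3. The difference was 0.45 ± 0.714 (limma adjusted p = 0.867), and 1.39 without control replicate 3 (adjusted p = 0.747).

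Lcn2, neutrophil gelatinase-associated lipocalin, binds bacterial siderophores and can be attached to the Mmp9 protein. It has 2 probe sets, which disagreed at 7 days. Probe set 160564_at read 96.9, 186.5 and 139.7 in mdx arrays, against 151.6, 173.4 and 590.7 in controls, a difference of -0.76 ± 0.387 (limma adjusted p = 0.490), and -0.20 without control replicate 3 (adjusted p = 0.957). Probe set 161684_r_at read 1174.4, 755.1 and 537.1 in mdx arrays, against 426.4, 671.9 and 414.1 in controls, a difference of 0.64 ± 0.374 (adjusted p = 0.559). Control replicate 3 was the highest array on the one probe set and the lowest on the other.

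**Figure D2:**
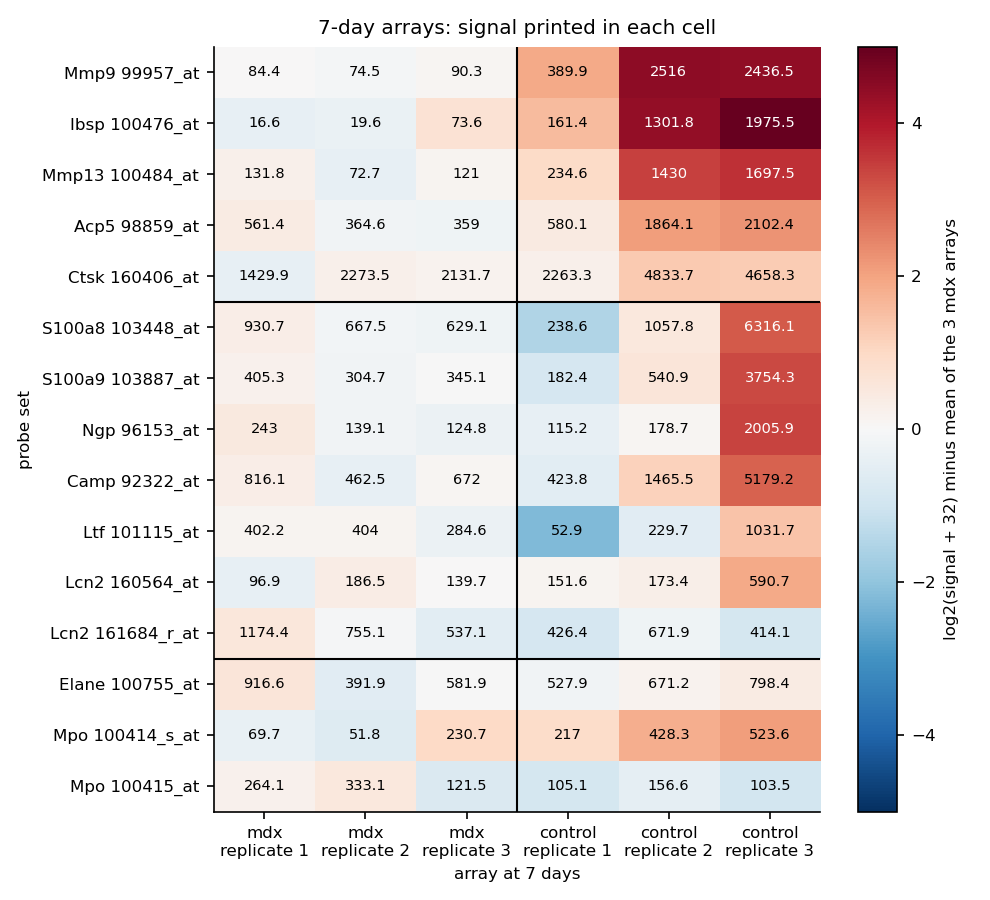
Signal of each probe set on the 6 arrays at 7 days, mdx at the left and control at the right, printed in the cells; colour is log2(signal + 32) minus the mean of the 3 mdx arrays. Mmp9, Ibsp, Mmp13, Acp5 and Ctsk are brightest in control replicates 2 and 3, while S100a8, S100a9, Ngp and Camp are brightest in control replicate 3; Elane and Mpo, genes of the primary granules, are below.

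What most granule probe sets shared at 7 days was 1 array. On 6 of the 9 probe sets control replicate 3 had at least 2 times the signal of each of the other 5 arrays at 7 days, a pattern looked for after its values were seen. Of all 9291 tested probe sets 12 did so, or 0.129%, and 5 of those 12 were granule genes. The ratio was 3.53 for Camp, 2.55 for Ltf and 3.17 for Lcn2 160564_at, besides those given above. For each of the other 5 arrays at 7 days, 0 of the 9 probe sets stood out in this way, although mdx replicate 1 did so on 379 tested probe sets, or 4.08%, and the remaining arrays on 0.0861% to 0.161%. Neither Mmp9 probe set did so in control replicate 3, where 99957_at was 0.968 times its value in replicate 2.

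Control replicate 3 at 7 days also differed from its group in the signal of albumin, a liver transcript used here as a sign of RNA from outside muscle. Albumin read 35486.9, 2398.9 and 3189.2 in mdx arrays at 7 days, against 964.3, 1831.9 and 25494.3 in controls. On mdx replicate 1, the array with the highest albumin at 7 days, S100a8, S100a9, Ngp and Camp read 930.7, 405.3, 243 and 816.1, each the highest of the 3 mdx arrays. Ltf and Lcn2 160564_at, which also stood out on control replicate 3, were not. Ltf read 402.2 there, against 404 in mdx replicate 2, and Lcn2 160564_at read 96.9, the lowest of the 3 mdx arrays. The part of RNA from outside muscle in these signals was not tested. Leaving out the arrays over 10000 in albumin removes mdx replicate 1 and control replicate 3 at 7 days. The 7-day difference was then -3.18 for Mmp9, 0.32 for S100a8, 0.02 for S100a9 and -0.49 for Camp. The Gapdh control signal near the 3′ end over that near the 5′ end, as the file names the probe sets, was 0.830, 0.320 and 0.704 in mdx arrays, against 0.147, 0.0555 and 0.0357 in controls. The groups did not overlap in this ratio, so at 7 days it cannot be told apart from genotype. With it as a covariate the difference was -3.40 for Mmp9, 0.05 for S100a8, -0.16 for S100a9 and -0.94 for Camp.

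Lists of other cells that a piece of diaphragm may hold were examined on the same arrays. The listed neutrophil genes other than those above had 19 of 31 genes on the array, with 26 probe sets, of which 0 of the 16 tested passed the threshold at 7 days. Their summed signal was 28288.6, 17204.9 and 17730.9 in mdx arrays, against 16173.6, 15079.6 and 19138.2 in controls, so control replicate 3 did not stand apart. A single probe set of the list, 162475_f_at for Pglyrp1, a bactericidal granule protein, had at least 2 times the signal of every other 7-day array in control replicate 3. It read 24.5, 73 and 84.3 in mdx arrays, against 118, 19.2 and 274.9 in controls. The other probe set of Pglyrp1, 104099_at, read 330, 281 and 141.3 in mdx arrays, against 82, 77.6 and 281.6 in controls, and did not stand out.

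Immature myeloid genes mark earlier marrow stages, and their summed signal did not single out that array either. Of 12 probe sets 0 of the 6 tested passed at 7 days, and their sum was 8088.7, 12202.9 and 10150.8 in mdx arrays, against 12750.2, 11402.2 and 12872.6 in controls. Elane, neutrophil elastase of the primary granules, read 916.6, 391.9 and 581.9 in mdx arrays, against 527.9, 671.2 and 798.4 in controls. Mpo, myeloperoxidase of the same granules, has 2 probe sets that disagreed and that the filter removed. Probe set 100414_s_at read 69.7, 51.8 and 230.7 in mdx arrays, against 217, 428.3 and 523.6 in controls, with both control replicates 2 and 3 above all mdx arrays and a difference of -1.61 ± 0.553 in the fit without a filter (limma adjusted p = 0.290). Probe set 100415_at read 264.1, 333.1 and 121.5 in mdx arrays, against 105.1, 156.6 and 103.5 in controls, a difference of 0.75 ± 0.391 (adjusted p = 0.567). Of the macrophage list 0 of 14 tested probe sets passed at 7 days. The erythroid, mast cell and liver lists also had 0 probe sets past the threshold at this age.

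Markers of bone and of osteoclasts included probe sets that were higher in control replicates 2 and 3 than in all mdx arrays at 7 days. Mmp9, S100a8, S100a9 and Camp were so too. Acp5, tartrate-resistant acid phosphatase of osteoclasts, read 561.4, 364.6 and 359 in mdx arrays, against 580.1, 1864.1 and 2102.4 in controls, and fell by 1.58 ± 0.368 on the log2 scale (limma adjusted p = 0.0396). Ctsk, the collagen-cutting cathepsin K of osteoclasts, read 1429.9, 2273.5 and 2131.7 in mdx arrays, against 2263.3, 4833.7 and 4658.3 in controls, a difference of -0.95 ± 0.237 that missed the threshold (adjusted p = 0.0668). In both, control replicates 2 and 3 were about alike and well above replicate 1. For Acp5 control replicate 1 lay just above the highest mdx array, and for Ctsk it lay between mdx arrays, so that the groups overlapped.

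Ibsp, bone sialoprotein, and Mmp13, the collagenase of hypertrophic cartilage and bone, were also highest in control replicates 2 and 3, on probe sets that the filter removed. Ibsp 100476_at read 16.6, 19.6 and 73.6 in mdx arrays at 7 days, against 161.4, 1301.8 and 1975.5 in controls, and fell by 3.64 ± 0.633 in the fit without a filter (limma adjusted p = 0.00288). Mmp13 read 131.8, 72.7 and 121 in mdx arrays, against 234.6, 1430 and 1697.5 in controls, and fell by 2.67 ± 0.484 in that fit (adjusted p = 0.00485). At 7 days both exceeded the filter's limit in control replicates 2 and 3 alone. Their lists were chosen with earlier results of these data known, which limits these p-values. The other Ibsp probe set, 97572_at, had a difference of 0.07 (adjusted p = 0.962 with the filter).

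The lists as a whole had no common shift at 7 days. The median difference of the tested probe sets was -0.07 for osteoclasts and 0.05 for bone and cartilage, against 0.04 over all tested probe sets. Of 8 osteoclast probe sets, 1 of 6 tested passed as lower at 7 days, that of Acp5, where 0.409% of all tested probe sets were lower, and 0 passed as higher. Their summed signal was 7376.7, 8395.6 and 8457.4 in mdx arrays, against 7690, 11961.3 and 14626.5 in controls. Of 15 bone and cartilage probe sets, 0 of 10 tested passed, and their sum was 27757.6, 27376 and 25250.6 in mdx arrays, against 25099.8, 25576 and 31394.9 in controls. On both lists 0 probe sets were at a signal of 0 on any array. The part of these cells in the Mmp9 difference was not tested. In the mean of 14 to 112 days Ctsk rose by 0.67 ± 0.106 and Car2, carbonic anhydrase of osteoclasts and red cells, fell by 0.42 ± 0.113 (limma adjusted p = 1.55e-05 and 0.00660), while Sparc, osteonectin of bone and connective tissue, rose by 0.31 ± 0.0671 (adjusted p = 0.000958). In all, 17 of 9291 tested probe sets, or 0.183%, had both control replicates 2 and 3 at 2 times or more of each mdx array at 7 days. This pattern was looked for after the Mmp9 values were seen, so Mmp9 had to be among them. Acp5 and Ctsk were too, with muscle genes such as Pvalb, for the calcium buffer parvalbumin, and Chrne, for the adult subunit of the acetylcholine receptor. Pvalb lacked the Mmp9 order of controls, since its control replicate 1, at 6861.3, was above replicate 3, at 5146.1.

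From 14 days on Mmp9 99957_at was dim in both genotypes. Its signal over the 15 mdx arrays of 14 to 112 days had a lowest value of 36.5, a median of 77.1 and a highest of 266.7, against 52, 70.5 and 137.6 over the 15 control arrays. Of these arrays mdx replicate 3 at 112 days was the highest. The mdx minus control difference was 0.30 at 14 days, -0.57 at 23, -0.02 at 28, 0.32 at 56 and 0.34 at 112 days (limma adjusted p = 0.993, 0.714, 0.999, 0.700 and 0.731). Its mean over these 5 ages was 0.07 ± 0.225 (adjusted p = 0.864). The 7-day difference less that mean was -3.67 ± 0.552, a description as before.

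The second probe set of Mmp9, 162369_f_at, was below the filter's limit on all of these arrays, but not equally dim on all. It had a lowest value of 14.8, a median of 37.9 and a highest of 93.5 over the 15 mdx arrays, against 7.6, 36.9 and 216 over the 15 control arrays. At 112 days it read 18.2, 27.6 and 93.5 in mdx arrays, against 216, 151.2 and 29.2 in controls, so that control replicates 1 and 2 were at least as bright as the 150.4 of control replicate 3 at 7 days. That difference was -0.96 ± 0.492 in the fit without a filter (limma unadjusted p = 0.0595, adjusted p = 0.250).

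**Figure D3:**
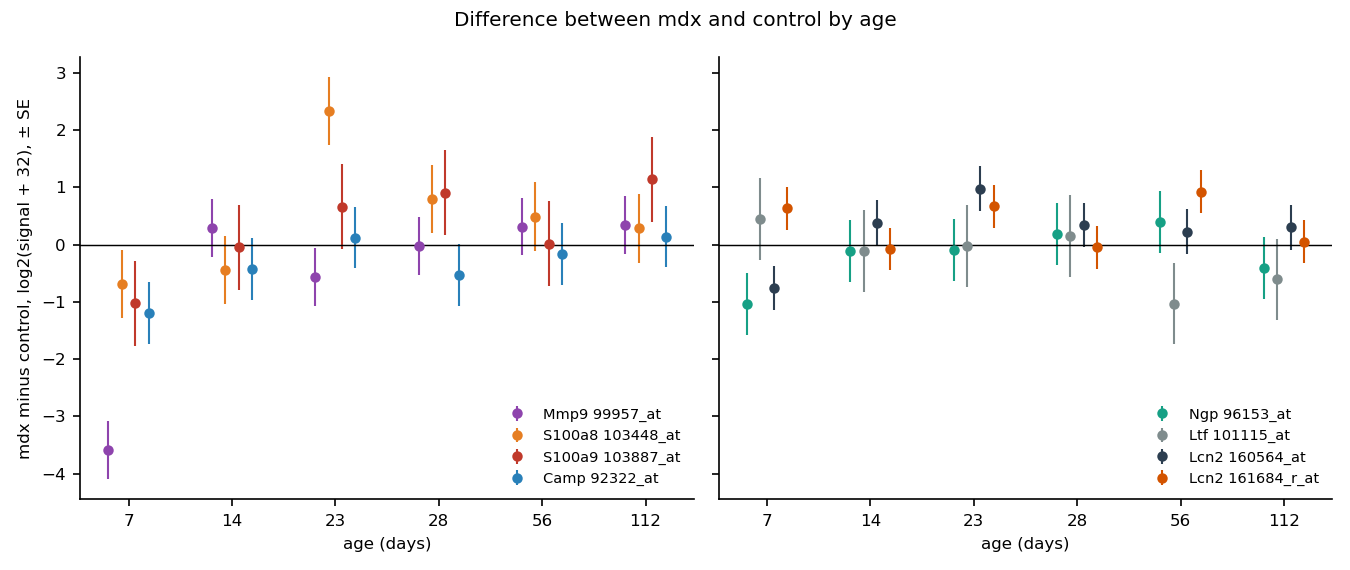
Difference between mdx and control in log2(signal + 32) at each age in days, points with 1 SE from the moderated variance; Mmp9, S100a8, S100a9 and Camp at the left, Ngp from the fit without a filter, Ltf and both Lcn2 probe sets at the right. Mmp9 99957_at is at -3.59 at 7 days and between -0.57 and 0.34 afterwards, and S100a8 reaches 2.33 at 23 days.

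S100a8 was higher in mdx muscle at 23 days. It read 719.9, 695.6 and 247.1 in mdx arrays, against 30.8, 112.2 and 100.4 in controls, a rise of 2.33 ± 0.597 on the log2 scale (limma adjusted p = 0.0218). The groups did not overlap, as for 12.6% of all tested probe sets in this direction, but mdx replicate 3 lay well below the other two, and all 3 controls were the lowest S100a8 signals of the series. It was 1 of the 6 probe sets other than Mmp9 to pass at this age, where 3.49% of all tested probe sets passed and 2.68% were higher. Fitted with the replicate number as a block the adjusted p was 0.0515. The call was also lost without control replicate 1, mdx replicate 1 or mdx replicate 2 of that age, with differences of 1.95, 2.08 and 2.11 (adjusted p = 0.152, 0.159 and 0.103).

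The partner gene did not pass with it. S100a9 at 23 days read 296.3, 148.8 and 37.9 in mdx arrays, against 24, 141.1 and 75.2 in controls, a difference of 0.67 (limma adjusted p = 0.789) with overlapping groups. Lcn2 160564_at read 751, 1420.4 and 424.3 in mdx arrays, against 412.1, 429.2 and 298.1 in controls, a difference of 0.98 (adjusted p = 0.201). This probe set passed at 23 days without mdx replicate 3, at 1.39 (adjusted p = 0.0379), and with array weights, at 1.55. Lcn2 161684_r_at read 747.9, 556.8 and 507.4 in mdx arrays, against 344.7, 335.9 and 412 in controls, without overlap and with a difference of 0.67 (adjusted p = 0.439).

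Ngp, Camp and Ltf, transcribed mainly in marrow, showed no difference near the threshold at 23 days. The log2 difference was -0.09 for Ngp without a filter, 0.12 for Camp and -0.02 for Ltf (limma adjusted p = 0.985, 0.961 and 0.994). Ngp then read 63, 31.4 and 48.5 in mdx arrays, against 49.8, 58.3 and 47.9 in controls, and these 6 values were among the lowest of the series for this gene.

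At the other ages 0 of the 6 probe sets passed. At 14 days 0.194% of all tested probe sets passed and 0 of the 6 had an unadjusted p under 0.05 in limma. At 28 days 2.96% of all passed and again 0 of the 6 had an unadjusted p under 0.05. At 56 days 16.7% of all passed, and 1 of the 6 had an unadjusted p under 0.05. At 112 days 12.2% of all passed, and 0 of the 6 had an unadjusted p under 0.05. Of the 6 ages, 56 and 112 days had the largest shares of probe sets that differed between the genotypes.

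Several members had groups that did not overlap at single ages. S100a8 was lower in all mdx arrays at 14 days, at 589.6, 405.2 and 499.6, against 610.9, 752 and 688 in controls, where 6.05% of all tested probe sets were lower without overlap. It was higher in all mdx arrays at 28 days, at 578.8, 501.4 and 625.5, against 319.2, 186 and 498.7, where 11.5% were higher without overlap. These differences were -0.44 and 0.80 (limma adjusted p = 0.989 and 0.674). The sign of S100a8 thus changed between 14 and 23 days, and this change was not tested.

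Lcn2 160564_at was higher in all mdx arrays at 14 days, at 401.3, 347.7 and 355.7, against 272.1, 233.7 and 322 in controls, where 6.87% of all tested probe sets were higher without overlap, and at 28 days, at 624.3, 395 and 384, against 377.2, 313.7 and 368.3. Its other probe set, 161684_r_at, was higher without overlap at 56 days, at 1507.7, 1341.4 and 941.4 in mdx arrays, against 753, 409.2 and 830.7 in controls, where 24.2% were. That difference was 0.93 (limma adjusted p = 0.0830). It passed without mdx replicate 1 or mdx replicate 3 of 112 days, at adjusted p = 0.0300 and 0.0293, and with array weights, at 0.0499. Ngp, which was not among the tested probe sets, was also higher without overlap at 56 days, at 153.4, 185.2 and 144.5 in mdx arrays, against 128.5, 92 and 122.7 in controls, with a difference of 0.40 in the fit without a filter (adjusted p = 0.675). S100a9 was higher without overlap at 112 days, at 293, 335 and 161.4 in mdx arrays, against 119.1, 60.4 and 120.7 in controls, where 13.7% were, with a difference of 1.15 (adjusted p = 0.358).

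Averaged over 14 to 112 days, 0 of the 6 probe sets passed, against 21.1% of all tested probe sets, and 2 had an unadjusted p under 0.05 in limma. These were S100a8, at 0.69 ± 0.267 (adjusted p = 0.0640), and Lcn2 160564_at, at 0.45 ± 0.173 (adjusted p = 0.0642). Both were close to the threshold. S100a8 passed without control replicate 3 or control replicate 1 of 7 days, which leave its difference as it was and lower its variance (adjusted p = 0.00798 and 0.0131), without mdx replicate 3 of 23 days or control replicate 3 of 28 days (0.0325 and 0.0498), and with the Gapdh ratio or albumin as a covariate (0.0481 and 0.0420). Lcn2 160564_at passed without control replicate 3 of 7 days, mdx replicate 3 of 23 days, control replicate 2 of 56 days or control replicate 3 of 112 days (adjusted p = 0.0316, 0.0203, 0.0407 and 0.0470), and with array weights or albumin as a covariate (0.0249 and 0.0391). In the mean of all 6 ages 0 of the 6 passed too, against 17.8% of all tested, with 1 at an unadjusted p under 0.05. The other averages of 14 to 112 days were 0.54 for S100a9, -0.17 for Camp, -0.32 for Ltf and 0.30 for Lcn2 161684_r_at (adjusted p = 0.284, 0.682, 0.538 and 0.217).

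Whether the 7-day difference departed from that average was tested for the granule genes. Of the 6 probe sets 0 passed, against 5.04% of all tested, and 2 had an unadjusted p under 0.05 in limma. These were S100a8, at -1.38 ± 0.654 (adjusted p = 0.240), and Lcn2 160564_at, at -1.21 ± 0.424 (adjusted p = 0.0974). Without control replicate 1 of 7 days, S100a8 passed at -2.48 (adjusted p = 0.0068) and Camp at -1.90 (adjusted p = 0.0460). Without control replicate 3 of 7 days, S100a8 was at -0.20 and Camp at -0.14 (adjusted p = 0.905 and 0.937).

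Other genes around the members did rise in mdx muscle after 7 days. On the list of other neutrophil genes 8 of 16 tested probe sets rose and 1 fell in the mean of 14 to 112 days, where 12.4% of all rose and 8.64% fell. The 3 with the lowest adjusted p were Lyz2, a lysozyme that macrophages share with neutrophils, at 1.47 ± 0.0880, Ncf4, a subunit of the phagocyte oxidase, at 1.86 ± 0.230, and Chil3, a lectin of neutrophils and activated macrophages, at 1.78 ± 0.228 (limma adjusted p = 3.50e-14, 2.51e-07 and 4.76e-07). Macrophage genes moved on a larger scale, with 12 of 14 tested probe sets rising and 0 falling. Lgals3, galectin 3, rose by 3.19 ± 0.147, Ctss, cathepsin S, by 2.47 ± 0.0937 and Tyrobp, a myeloid signalling adaptor, by 1.92 ± 0.114 (adjusted p = 6.79e-17, 7.09e-19 and 2.87e-14).

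At 23 days, the age of the S100a8 rise, the summed macrophage signal ran from 47724.6 to 85756.4 in mdx arrays, against 18361.7 to 21024.6 in controls. The sum of the other neutrophil genes ran from 34371.1 to 55827.4 in mdx arrays, against 22283.7 to 24409.2 in controls. At this age 11 of the 14 macrophage and 5 of the 16 other neutrophil probe sets passed as higher, and 0 of each as lower. S100a8 was higher in mdx at this age, as both lists were, but over the ages its pattern differed. Its mean at 14, 23 and 28 days was 498.1, 554.2 and 568.6 in mdx, against 683.6, 81.1 and 334.6 in controls. The mean macrophage sum was 30434.2, 61683.8 and 70788.7 in mdx, against 25182.3, 19677 and 24118.4 in controls. For the other neutrophil genes it was 31213.1, 43272.6 and 41921 in mdx, against 25792.9, 23465.3 and 29771.5. The part of either list in the S100a8 difference was not tested.

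Genes that act with the members in their pathways, such as receptors, inhibitors and related proteases, had 37 probe sets, 19 of them tested. At 7 days 0 of the 19 passed, and without a filter 1 did, Mmp13, as described above. In the mean of 14 to 112 days 8 rose and 2 fell. Timp1, an inhibitor of Mmp9, rose by 1.51 ± 0.108 (limma adjusted p = 3.08e-12), and the 2 probe sets of Mmp12, the macrophage elastase, rose by 2.57 ± 0.201 and 1.95 ± 0.153 (adjusted p = 1.99e-11 and 2.28e-11). Mmp12 thus rose in mdx muscle in this mean, while Mmp9 99957_at was at 0.07 in the same fit.

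With age, Lcn2 had the clearest change of the granule genes. On 160564_at it read 531, 587.7 and 863.6 in mdx arrays at 112 days, against 96.9, 186.5 and 139.7 in mdx arrays at 7 days, with no overlap. The rise was 2.00 ± 0.387 (limma adjusted p = 0.000322), the only one of the 6 probe sets to pass in mdx, where 17.4% of all tested did. A count of 1 of 6 is near that share, so nothing particular to the granule genes is read from it. In controls it read 342.3, 574.4 and 705.7 at 112 days, against 151.6, 173.4 and 590.7 at 7 days, a difference of 0.94 that was just past the threshold (limma adjusted p = 0.0498). That call was lost under 33 of 45 alternatives, among them no filter (adjusted p = 0.0620), quantile normalization (0.148) and the fit without control replicate 1 of 7 days (0.254), and over the alternatives the difference ran from 0.62 to 1.50. The highest was that without control replicate 3 of 7 days (adjusted p = 0.00285).

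Lcn2 161684_r_at rose by 1.29 in controls (limma adjusted p = 0.00675), a call lost under 2 of 46 alternatives, without the arrays over 10000 in albumin (0.115) and with the Gapdh ratio as a covariate (0.110). In mdx its difference was 0.70 (adjusted p = 0.210), and 1.34 without mdx replicate 1 of 112 days, where it passed (adjusted p = 0.00512). The difference between the genotypes in these changes with age was not tested.

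S100a8, S100a9 and Camp were lower in controls of 112 days than in controls of 7 days. Each of these calls was lost without control replicate 3 of 7 days, and under other alternatives too. Of the 6 probe sets 5 passed for control at 112 days against control at 7 days, 2 higher and 3 lower, where 41.7% of all tested passed. The log2 difference was -2.59 ± 0.742 for S100a9, -1.57 ± 0.597 for S100a8 and -1.33 ± 0.538 for Camp (limma adjusted p = 0.00624, 0.0352 and 0.0468). Without control replicate 3 of 7 days the differences were -1.45, -0.39 and -0.45 (adjusted p = 0.112, 0.549 and 0.504). In mdx the same differences were -0.42, -0.59 and 0.01 (adjusted p = 0.759, 0.553 and 0.996). As a description, Mmp9 99957_at had a difference of 0.35 between 112 and 7 days in mdx and one of -3.59 in controls. On Mmp9 162369_f_at these were 0.46 in mdx and -0.0015 in controls.

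Over all 6 ages in controls an F test passed for 4 of the 6 probe sets, where 62.4% of all tested probe sets passed. These were Lcn2 161684_r_at, S100a8, S100a9 and Camp (limma adjusted p = 0.000281, 0.000349, 0.0125 and 0.0284). Lcn2 161684_r_at ran from a lowest array of 335.9 to a highest of 1825.2 over the 15 controls of 14 to 112 days. Camp in the same arrays ran from 286 to 1160.6, and all 3 of its controls at 14 days, at 918.3, 1160.6 and 989.2, were above all 3 at 23 days, at 417.4, 286 and 336.2.

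Among arrays of the same age and genotype, only the pair of S100a8 and S100a9 passed a test of going up and down together. Signals were centred on their group mean and correlated over the 36 arrays, for all 36 pairs of the 9 probe sets, with 100000 permutations within groups. S100a8 and S100a9 had Pearson's r of 0.858 and Spearman's rho of 0.745 (permutation p adjusted over the pairs = 0.00108 and 0.00504). Without the 2 arrays farthest from the median, control replicates 1 and 3 at 7 days, r was 0.787. Values of r without 2 arrays keep the group means of all 36 arrays. The arrays left out thus still shape the deviations of the rest of their group. All other pairs missed the adjusted threshold. Pairs with Mmp9 include the 7-day arrays that chose it, so they are given below as a description.

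**Figure D4:**
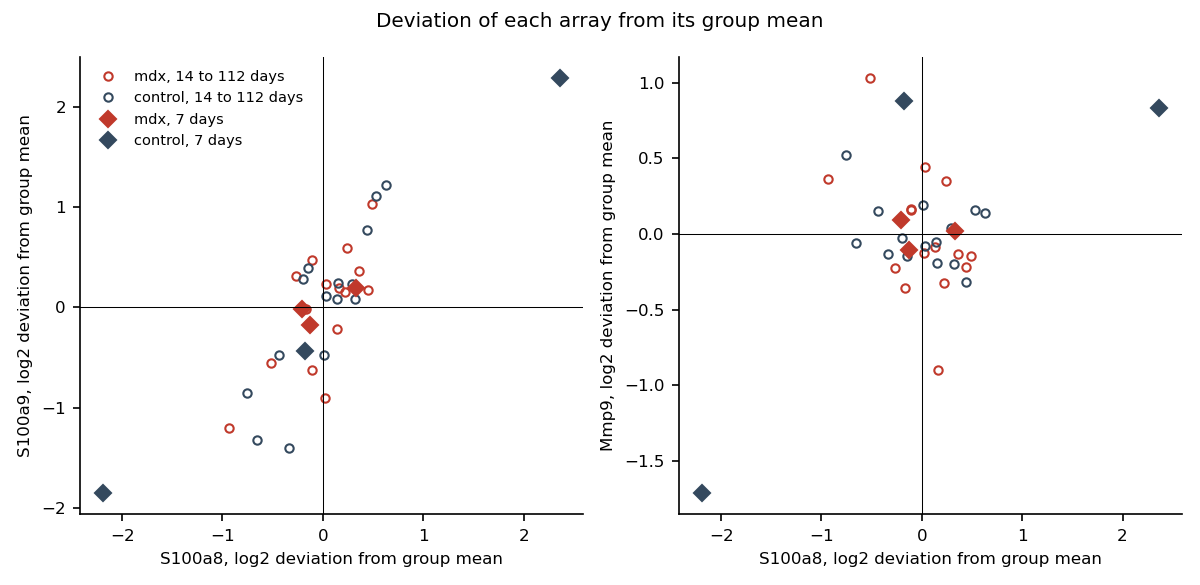
Deviation of each of the 36 arrays from its group mean in log2(signal + 32), with S100a8 on the horizontal axis against S100a9 at the left and Mmp9 at the right; diamonds are 7-day arrays, circles later ones, mdx red and control dark blue. S100a9 follows S100a8 with r of 0.858, and Mmp9 against S100a8 has r of 0.370. Without control replicate 1 at 7 days and mdx replicate 3 at 112 days the latter is 0.121, with the group means of all arrays kept.

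As a description, Mmp9 99957_at against the granule genes had r from 0.242 with S100a9 to 0.632 with Ltf. Without the 2 farthest arrays, but with the group means of all arrays kept, these were 0.0670 and 0.462. The median r over the 36 pairs was 0.394, and 0.187 without control replicate 3 of 7 days. S100a8 with Ngp, for example, had r of 0.704, and 0.0997 without control replicates 1 and 3 of 7 days, with the group means of all arrays kept. The 2 probe sets of Lcn2 had r of -0.0933.

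The probe sets most like Mmp9 by the same centred r over 36 arrays, among 10824 searched with the members left out, were those of Rfc1, for the large subunit of replication factor C, at 0.751, Ibsp 97572_at at 0.725, Bmp5, a bone morphogenetic protein, at 0.693, Ibsp 100476_at at 0.682 and Mmp13 at 0.660. Most like the mean of the standardised granule genes were Adam22 at 0.706, Krt18, a keratin of simple epithelia, at 0.682, Igfbp1, a growth factor binding protein of liver, at 0.679, Serpinf2, the antiplasmin of liver, at 0.667 and Ctse, cathepsin E, at 0.658. These are descriptions over shared arrays, with no test. The arrays include those of 7 days that chose Mmp9. They also include control replicate 3 of 7 days, the highest of that age on most granule probe sets and high in albumin. Ibsp, Mmp13 and Bmp5, 3 genes of bone and cartilage, stood among those nearest to Mmp9, and liver genes among those nearest to the granule genes. No source of the signals is read from this.

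As a check of the labels, the dystrophin gene Dmd fell by 1.01 ± 0.122 on the log2 scale in the mean of the 6 ages (limma adjusted p = 2.22e-07), while at 7 days its difference was -0.48 ± 0.299 (adjusted p = 0.577). In the mean of 14 to 112 days 1 muscle marker probe set fell, Myh4, a fast myosin, by 0.29 ± 0.104 (adjusted p = 0.0462). The 10 listed muscle genes summed to between 93099.3 and 469316.8 on the 36 arrays. On 9 arrays albumin exceeded 10000, in both genotypes. Keratinocyte genes had 1 probe set past the threshold at 7 days, Krtap8-1, a hair keratin-associated protein, which fell by 2.50 ± 0.582 (adjusted p = 0.0396).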

How the data were processed

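Gene expression was measured on 36 single-colour Affymetrix arrays of total RNA from diaphragm, hybridised by the maker's protocol per the labels. As deposited, each column holds linear intensity values of the probe sets of 1 array, and every column was assigned to its sample through the title. The software behind these values was not given in the sources used here. On every array the mean between percentiles 2 and 98 was 1499.2 to 1499.7, so the values had been scaled to a common level and were used as deposited. Median signals ran from 450.6 to 723.4, and having 3 arrays in a group limits the precision.

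Values were taken as log2(value + 32). Of 12488 probe sets, 66 controls were left out, and 9291 with at least 3 arrays above percentile 40, a signal of 374.5, were tested. limma 3.58.1 in R 4.3.3 fitted 12 group means with trended eBayes and 24 residual degrees of freedom, with Benjamini-Hochberg adjustment over all tested probe sets. Rises and falls are differences with an adjusted p under 0.05, and SE come from the moderated variance. Probe sets were named by the platform annotation, in which 10833 have 1 symbol, 396 several and 1193 none.

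The members and the gene lists were chosen with earlier results of these data known. All 9 member probe sets are named, and from each list those past the threshold at 7 days or in the mean of 14 to 112 days, at most 3 by adjusted p. The 5 probe sets nearest to Mmp9 and to the granule genes were taken by centred r. Elane, Mpo, Pglyrp1, Pvalb and Chrne were named after their values were seen. Correlations used numpy 2.4.6 and scipy 1.17.1. The fit was tested on simulated data. Alternatives covered the pseudocount, the filter, quantile normalization, weights per array, blocks by replicate number, the 6 arrays of an age alone, arrays left out, and albumin or the Gapdh ratio as covariates. Promoter windows are from RefSeq on GRCm38.p6.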

Additional observations from a re-analysis of the deposited data

Results flagged for a closer look

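S100a8 103448_at moved in opposite directions between mdx and control at neighbouring ages, with all 3 mdx arrays on one side of all 3 control arrays each time. At 14 days every mdx array was below every control array, as for 6.05% of all tested probe sets, with a log2 difference of -0.44 (limma adjusted p = 0.989). At 23 days every mdx array was above every control array, at 2.33, and at 28 days again, at 0.80 (limma adjusted p = 0.0218 and 0.674). Of all tested probe sets 12.6% and 11.5% were higher without overlap at these ages. Only the difference at 23 days passed the threshold. The difference between these ages was not tested.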

How the results depend on the processing

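At 7, 14, 28 and 112 days the count of granule probe sets past the threshold in mdx against control was 0 under every alternative run. At 23 days 1 passed, against 0 with the replicate block, 2 with array weights and 0 to 2 when single arrays were left out. At 56 days it was 0, and 1 with array weights, with 0 to 1 over single arrays left out. In the mean of 6 ages leaving out single arrays gave 0 to 1 against 0, with 1 without control replicate 3 of 7 days or mdx replicate 1 of 112 days. In the mean of 14 to 112 days 0 passed, against 1 with the Gapdh ratio and 2 with albumin as a covariate, 1 with array weights and 0 to 2 over single arrays left out. The 7-day difference less that mean gave 0 to 2 over single arrays left out, with 2 only without control replicate 1 of 7 days. For mdx at 112 against 7 days the count of 1 was 0 with the filter at percentile 60, which removes Lcn2 160564_at, and 1 to 2 over single arrays left out, with 2 only without mdx replicate 1 of 112 days. For control at 112 against 7 days the count of 5 was 3 with no filter, 3 with the filter at percentile 60, 3 with the replicate block, 2 with array weights, 0 without the arrays over 10000 in albumin, 0 with the Gapdh ratio as a covariate and 2 to 5 over single arrays left out, with 2 without replicate 2 or 3 of either control group. The F test over ages in controls gave 1 without the arrays over 10000 in albumin, against 4, and 3 to 4 over single arrays left out. The correlation passed for 1 pair, and for 1 to 2 over single arrays left out, with 2 only without control replicate 3 of 7 days. Camp in controls at 112 against 7 days was 0.43 without the arrays over 10000 in albumin, against -1.33. Of the single values, 3444 kept their side of the threshold or moved by less than the spread, 75 lost a call, 23 gained one, 3 moved and 1 reversed. Where no cause is named, the cause was not tested. Arrays of mdx and control with the same replicate number shared only a number. Their deviations correlated with r from -0.225 to 0.147, 1 of 18 pairs was over 0.1, and 1 of 18 arrays correlated best with its own number.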
